A study of Mus musculus with 20 samples.

Results

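The 42 genes described here act in mitosis: they drive entry into division, build the spindle, attach chromosomes to it, delay their separation until all are attached, and split the cell. They were chosen by symbol from the gene column of a table of 23402 genes, and all 42 were found. RNA was profiled in 20 libraries of subcutaneous tumours grown in mice from MC38, a mouse colon adenocarcinoma cell line. The tumours of 10 libraries had received vehicle (Control), and those of the other 10 had received ATBx around the tumour (peri-tumoral, P.T.ATBx). The comparison asks how tumour RNA differed with that treatment. No agent, dose or schedule behind ATBx is given in the labels, nor mouse strain, sex, age or time of collection, and all 20 tumours carried the same cell line. Whether each library stands for a separate animal is not stated either, and p-values therefore measure only the spread between these samples, part of which may be technical.

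Progress through mitosis is set by cyclin-dependent kinase 1 bound to cyclins A and B, helped by the Polo and Aurora kinases. The spindle checkpoint holds back the anaphase-promoting complex, a ubiquitin ligase, until every kinetochore is attached, after which cyclin B and securin are destroyed and the cell divides. Most of these genes are transcribed late in the cell cycle, when the MuvB complex, with B-Myb and FoxM1, binds promoters that hold a cell cycle genes homology region, the CHR. In tumours their RNA is read as a sign of how many cells divide. In bulk tissue, fewer dividing cells and less RNA per dividing cell cannot be told apart.

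Promoter sequence was available from RefSeq (GRCm38.p6, the same assembly as the mm10 build of the values) for 36 of the 42 genes, in 38 windows from 250 bases before to 50 bases after the annotated start, with 2 windows each for Ect2 and Prc1. Not matched were Aurkb, Ccna2, Incenp, Kif20a, Spc24 and Tpx2. The windows were searched on both strands for the CHR letters TTTGAA and for the CCAAT box, the site of the factor NF-Y. A CHR match overlapped a CCAAT match in 1 pair, and the CCAAT matches of Ube2c at −186 and −183 bases also shared letters. The 5 stretches below, each from 150 bases before to 30 bases after the start, 5′ to 3′ on the strand of the gene, show how the motifs are arranged in genes that the values below turn on, and capitals mark each CHR (TTTGAA, or TTCAAA on the other strand) and each CCAAT box (or ATTGG). They were picked after their values were seen.
Cdk1, the kinase that drives mitosis, at chr10:69352883-69353062, minus strand: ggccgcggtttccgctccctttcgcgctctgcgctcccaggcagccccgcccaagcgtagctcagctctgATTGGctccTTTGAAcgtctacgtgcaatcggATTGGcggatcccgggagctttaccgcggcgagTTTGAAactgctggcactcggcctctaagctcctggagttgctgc
Top2a, the topoisomerase that untangles chromosomes, at chr11:99024160-99024339, minus strand: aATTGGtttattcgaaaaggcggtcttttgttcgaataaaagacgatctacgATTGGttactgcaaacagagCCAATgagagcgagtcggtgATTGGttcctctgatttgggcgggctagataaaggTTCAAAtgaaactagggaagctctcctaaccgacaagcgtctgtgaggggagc
Racgap1, a part of the central spindle, at chr15:99651627-99651806, minus strand: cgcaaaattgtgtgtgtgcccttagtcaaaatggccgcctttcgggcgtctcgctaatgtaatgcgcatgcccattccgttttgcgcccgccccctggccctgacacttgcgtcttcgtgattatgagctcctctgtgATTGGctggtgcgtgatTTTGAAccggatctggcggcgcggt
Mki67, the proliferation marker Ki-67, at chr7:135716350-135716529, minus strand: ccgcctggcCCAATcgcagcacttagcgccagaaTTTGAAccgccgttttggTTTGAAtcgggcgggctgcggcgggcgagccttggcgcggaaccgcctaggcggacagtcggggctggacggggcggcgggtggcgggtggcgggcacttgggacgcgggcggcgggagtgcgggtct
Cenpa, the histone of centromeres, at chr5:30666736-30666915, plus strand: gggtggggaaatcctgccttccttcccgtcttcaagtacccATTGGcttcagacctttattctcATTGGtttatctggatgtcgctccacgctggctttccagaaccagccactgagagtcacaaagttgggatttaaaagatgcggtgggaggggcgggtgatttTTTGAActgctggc

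A CHR match was present in 29 of the 38 windows (76.3%), against 17.9% of all 32851 windows and 12% of the 12015 windows of tested genes. CCAAT was present in 28 windows (73.7%), against 37.4% of all windows. Both motifs stood in 24 windows (63.2%), against 6.95% of all. Most CHR matches lay at the start site: 29 of 39 began between 30 bases before and 45 bases after it, a range drawn after the positions were seen. The Cdk1 stretch holds a CHR 15 bases and another 71 bases before the start. In Racgap1 and Cenpa the match lies just after the start, and in Mki67 both matches lie further upstream of the start used for its window. The annotated Mki67 gene reaches upstream of that start, to base 135716450 of chromosome 7, so these distances depend on the start chosen. The windows of Birc5, Kif18a, Mad2l1, Nuf2 and Nusap1 held neither motif. A match describes letters in a window, and no binding was measured.

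**Figure D1:**
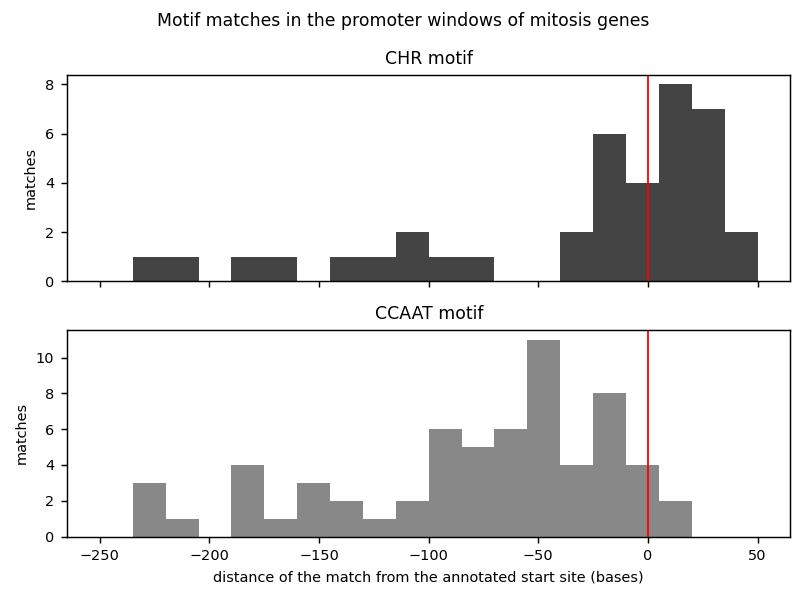
Number of CHR matches (top) and CCAAT matches (bottom) in the 38 promoter windows, by distance in bases from the annotated start site (red line), in bins of 15 bases. CHR matches gather around the start site and CCAAT matches mostly before it.

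Every mitosis gene was above 0 in all 20 libraries, from 5.77 FPKM (Cenpf in Control 1) to 155 FPKM (Top2a), where FPKM is fragments scaled to transcript length and sequencing depth. All 42 were among the 12788 genes tested, those with a mean of at least 0.5 FPKM. Averaged over 20 libraries, Top2a stood highest at 133 FPKM, followed by Birc5 (survivin) at 95.8, Ccna2 (cyclin A2) at 90.0 and Ube2c, the ubiquitin-conjugating enzyme of the anaphase-promoting complex, at 84.7. Kif15 and Spc24 stood lowest at 9.64 and 9.88 FPKM. In that order of levels, the ranges of neighbouring genes overlapped in 41 of 41 pairs, and 3 pairs (Ube2c above Bub1b, Bub1b above Racgap1, and Nuf2 above Ect2) kept their order in each of the 20 libraries. Among the 42, 17 overlap another annotated gene, and Ccnb1, Ccnb2, Kif4 and Kif22 have named pseudogenes. The values of these genes are less certain, since the sources used here do not say how shared reads were counted or whether strand was used.

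Relative depth, read from the spacing of low values, ran from 0.808 to 1.28, a 1.59-fold range, and read totals are unknown. It was 1.05 ± 0.164 for Control and 0.968 ± 0.0784 for P.T.ATBx (SD over 10 libraries each), a difference within the spread (two-sided permutation p = 0.177). Control 1 and Control 3 correlated less with the other libraries than a limit of 3 scaled median absolute deviations below the median of all. In Control 1, Rpph1 and Rmrp, the RNA parts of RNase P and RNase MRP, took 20.5% of summed FPKM, against 7.75% to 17.2% elsewhere. Control 3 held the highest Control sums of adipocyte, epithelial, endothelial and keratinocyte markers. Of the 8 markers of colon epithelium or epithelial tumour, Cdx2 was at 0 in all libraries and Vil1 reached 0.204 FPKM, while Krt18 ran from 0.335 to 53.7 FPKM. Ptprc (CD45), a marker of all leukocytes, ran from 28.2 to 59.2 FPKM.

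None of the 42 mitosis genes passed the test between P.T.ATBx and Control, and 39 of the 42 had a negative log2 fold change. The differences were small: the median was −0.07 on the log2(FPKM + 1) scale, a difference of −4.50%, against 0.00 over all tested genes. Across all 12788 genes limma called 108 (0.845%), of which 59 were higher (0.461%) and 49 lower (0.383%), at a Benjamini-Hochberg adjusted p under 0.05, and after rescaling each library to 1 sum (the TPM scale) 20 higher and 29 lower. Log2 fold changes were negative in 48.5% of all tested genes and in 45% of the 6614 genes within the same range of mean FPKM. At an unadjusted p under 0.05, 8 mitosis genes were lower and 0 higher, where 6.08% of all tested genes were lower and 7.51% higher. The groups overlapped in each of the 42 genes, and 0.133% of all tested genes had groups that did not overlap.

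The 42 genes share their libraries and vary together, so the 39 negative values are not independent of each other. The mean of the 42 log2(FPKM + 1) values was 4.98 ± 0.07 for Control (4.84 to 5.05) against 4.90 ± 0.08 for P.T.ATBx (4.81 to 5.10; SD, n = 10 each). P.T.ATBx lay below the Control median in 9 of its 10 libraries, and the exception, P.T.ATBx 2, had the highest mean of all 20. The 95% intervals of the 42 differences reached from −0.40 (Cenpf) to 0.17 (Kif18a), and 8 of them excluded 0 without adjustment. The standard errors ran from 0.04 to 0.12.

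**Figure D2:**
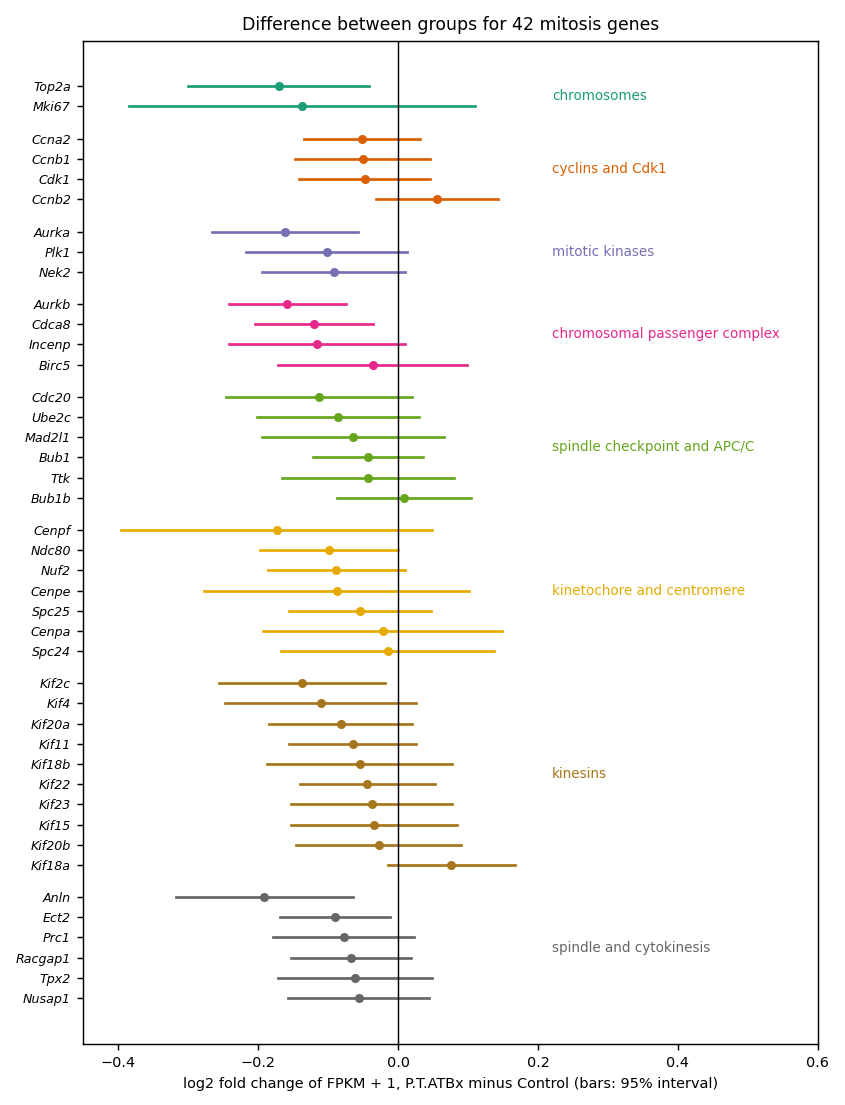
Log2 fold change of FPKM + 1, P.T.ATBx minus Control, for each of the 42 mitosis genes (points) with its 95% interval (bars, unadjusted, n = 10 each), grouped and coloured by role. Points of 39 genes lie left of 0, and 8 intervals exclude 0.

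Of the cyclins and Cdk1, 3 of 4 had negative values, with a median of −0.05. Cdk1, the kinase itself, was at 48.5 ± 3.10 FPKM in Control against 46.9 ± 3.55 FPKM in P.T.ATBx (SD, n = 10 each, as for the pairs of values that follow, Control first). Ccna2, which acts from S phase into early mitosis, was at 91.7 ± 5.24 and 88.4 ± 5.38 FPKM, and Ccnb1, the main mitotic cyclin, at 35.6 ± 2.49 and 34.4 ± 2.68 FPKM. Ccnb2, the other B-type cyclin, was the exception at 49.6 ± 3.42 and 51.5 ± 2.96 FPKM, a log2 fold change of 0.06. The differences of all 4 were smaller than the spread between libraries.

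All 3 mitotic kinases had negative values, with a median of −0.10. Aurka (Aurora A, Entrez gene 20878, chromosome 2, 172356190 to 172370886), the kinase of centrosomes and spindle poles, had a lowest, median and highest value of 37.7, 41.6 and 45.2 FPKM in Control, and of 31.9, 37.8 and 43.7 FPKM in P.T.ATBx. The groups overlapped, with 4 P.T.ATBx libraries below the lowest Control and 4 Control libraries above the highest P.T.ATBx. Its log2 fold change was −0.16 ± 0.05 (SE, p = 0.00396, limma adjusted p = 0.129). Plk1, the Polo kinase, was at 26.7 ± 2.23 and 24.8 ± 2.44 FPKM, and Nek2, a kinase of centrosome separation, at 15.6 ± 1.21 and 14.6 ± 1.30 FPKM. Neither was past an unadjusted p of 0.05.

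The chromosomal passenger complex, which corrects faulty attachments and later marks the site of division, is built of Aurora B, INCENP, survivin and borealin. All 4 genes had negative values, with a median of −0.12. Aurkb (Aurora B, Entrez gene 20877, chromosome 11, 69045624 to 69051664), its kinase, had the smallest p of the 42. Its lowest, median and highest values were 30.4, 34.7 and 38.3 FPKM in Control, and 29.3, 30.9 and 34.9 FPKM in P.T.ATBx. Lower values prevailed in P.T.ATBx, with 9 of 10 below the median of Control, yet the groups overlapped. The log2 fold change was −0.16 ± 0.04 (SE, p = 0.000707, limma adjusted p = 0.0608). Cdca8 (borealin, Entrez gene 52276, chromosome 4, 124918465 to 124936917), which ties the complex to chromatin, ran over 30.7, 33.4 and 35.8 FPKM in Control and 27.7, 30.3 and 35.6 FPKM in P.T.ATBx, as lowest, median and highest. In P.T.ATBx, 6 libraries lay below the lowest Control library, while P.T.ATBx 2 was as high as the upper Control libraries. Its log2 fold change was −0.12 ± 0.04 (SE, p = 0.00737, limma adjusted p = 0.174). Incenp, the scaffold, was at 34.1 ± 3.36 and 31.4 ± 3.22 FPKM. Birc5, at 97.0 ± 10.5 and 94.5 ± 10.4 FPKM, differed by far less than its spread.

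Both genes that act on the chromosomes as a whole had negative values. Top2a (Entrez gene 21973, chromosome 11, 98992947 to 99024199) had a lowest, median and highest value of 106, 145 and 155 FPKM in Control, and of 110, 127 and 139 FPKM in P.T.ATBx. Every P.T.ATBx library was below the median of Control and 6 Control libraries lay above the highest P.T.ATBx, while Control 1 was the lowest of all 20. Its log2 fold change was −0.17 ± 0.06 (SE, p = 0.0119, limma adjusted p = 0.209). Mki67, whose protein coats mitotic chromosomes and keeps them apart, was at 50.1 ± 8.94 and 45.3 ± 7.63 FPKM, with a log2 fold change of −0.14 ± 0.12 (SE, limma adjusted p = 0.668). It was the gene with the widest spread of the 42, with a pooled SD of 0.28 on the log2(FPKM + 1) scale against a median of 0.12.

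**Figure D3:**
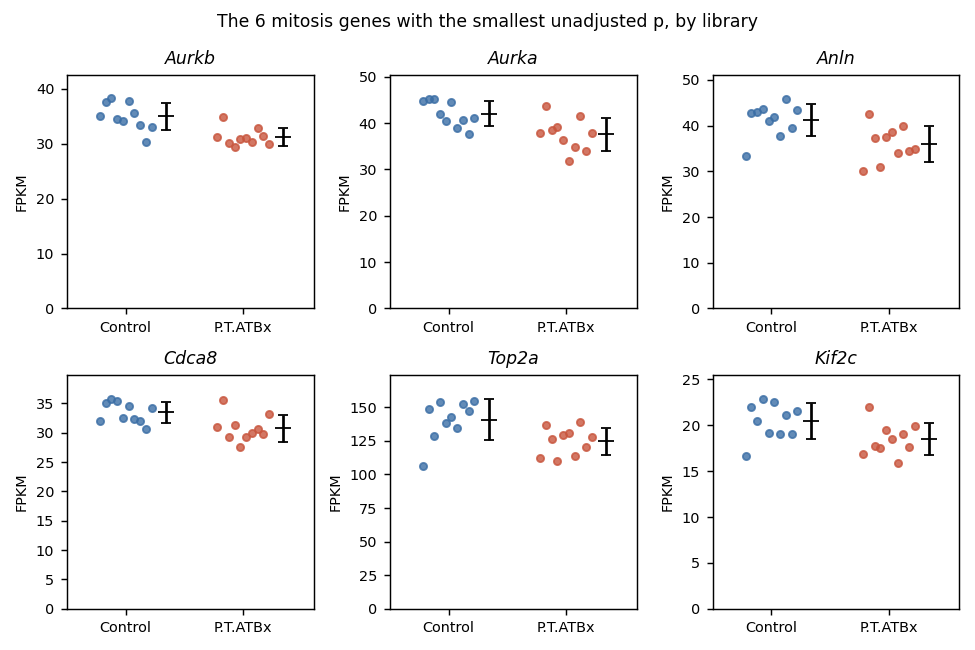
FPKM in each library (points, Control blue and P.T.ATBx red) of the 6 mitosis genes with the smallest unadjusted p, with the mean and SD of each group (black, n = 10). The groups overlap in all 6 genes, and the means of P.T.ATBx lie below those of Control.

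Among the genes of the spindle checkpoint and the anaphase-promoting complex, 5 of 6 had negative values, with a median of −0.05, and none was past an unadjusted p of 0.05. Cdc20, the activator of the complex and the target of the checkpoint, was at 56.4 ± 6.42 and 52.0 ± 5.02 FPKM, and Ube2c at 87.4 ± 9.59 and 82.1 ± 5.47 FPKM. Of the checkpoint genes, Bub1, a kinetochore kinase, was at 19 ± 0.982 and 18.4 ± 1.16 FPKM. Mad2l1, which binds Cdc20, was at 29.5 ± 3.42 and 28.1 ± 2.75 FPKM, and Ttk, the Mps1 kinase that starts the signal, at 11.1 ± 1.26 and 10.7 ± 0.813 FPKM. Bub1b (BubR1) was level at 64.8 ± 4.31 and 65.2 ± 4.89 FPKM, with a 95% interval from −0.09 to 0.10.

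All 7 genes of the kinetochore and centromere had negative values, with a median of −0.09, and Ndc80 had an unadjusted p of 0.0496. Ndc80 and Nuf2, the arm of the Ndc80 complex that grips microtubules, were at 23.6 ± 1.59 and 23.1 ± 1.38 FPKM in Control and at 22 ± 1.90 and 21.7 ± 2.03 FPKM in P.T.ATBx. Spc24 and Spc25, the arm that faces the chromosome, were at 9.91 ± 0.965 and 18.7 ± 0.995 FPKM in Control and at 9.86 ± 1.52 and 18.0 ± 1.89 FPKM in P.T.ATBx. Cenpe, a kinetochore motor, was at 15.8 ± 2.37 and 14.8 ± 2.04 FPKM, and Cenpf, a large protein of the outer kinetochore, at 11.3 ± 2.09 and 9.80 ± 1.45 FPKM. Cenpa was at 43.2 ± 6.66 and 42.5 ± 5.86 FPKM.

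Of the 10 kinesins, motors that move along microtubules or take them apart, 9 had negative values, with a median of −0.05. Kif2c (MCAK, Entrez gene 73804, chromosome 4, 117159633 to 117182624), which depolymerizes microtubules at kinetochores, had a lowest, median and highest value of 16.6, 20.8 and 22.8 FPKM in Control, and of 15.9, 18.1 and 22 FPKM in P.T.ATBx. The groups overlapped over most of their range, with 9 of 10 libraries of P.T.ATBx under the median of Control, and the log2 fold change was −0.14 ± 0.06 (SE, p = 0.0244, limma adjusted p = 0.283). Kif18a, which limits the length of kinetochore microtubules, went the other way at 12 ± 0.766 and 12.7 ± 0.976 FPKM, a log2 fold change of 0.08 with an interval from −0.01 to 0.17. Kif11 (Eg5), which pushes the spindle poles apart, was at 44.9 ± 3.09 and 42.9 ± 2.84 FPKM. The chromosome-bound motors Kif4 and Kif22 were at 20.6 ± 2.07 and 23.1 ± 1.81 FPKM in Control and at 19 ± 2.17 and 22.3 ± 1.63 FPKM in P.T.ATBx. Kif20a and Kif23, which serve cytokinesis, were at 36.2 ± 3.13 and 25 ± 2.40 FPKM in Control and at 34.1 ± 2.51 and 24.3 ± 1.97 FPKM in P.T.ATBx. Kif15, Kif18b and Kif20b had means of 9.76, 14.4 and 15.9 FPKM in Control and of 9.52, 13.9 and 15.5 FPKM in P.T.ATBx.

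All 6 genes of the spindle and of cytokinesis had negative values, with a median of −0.07. Anln (anillin, Entrez gene 68743, chromosome 9, 22331214 to 22389211), the scaffold of the contractile ring, had the most negative log2 fold change of the 42. Its lowest, median and highest values were 33.4, 42.4 and 45.8 FPKM in Control, and 30.2, 36.0 and 42.6 FPKM in P.T.ATBx. In P.T.ATBx 9 of 10 libraries lay below the Control median and 5 Control libraries lay above the highest P.T.ATBx, while Control 1 sat low among the P.T.ATBx values. The log2 fold change was −0.19 ± 0.06 (SE, p = 0.00469, limma adjusted p = 0.141). Ect2, the exchange factor that switches on RhoA at the division site, was at 21.0 ± 1.00 and 19.7 ± 1.37 FPKM (p = 0.0270, limma adjusted p = 0.295). Its partner Racgap1 was at 56.5 ± 3.15 and 53.9 ± 3.83 FPKM, and Prc1, which bundles the central spindle, at 51.1 ± 4.18 and 48.3 ± 3.30 FPKM. Tpx2, the activator of Aurora A, and Nusap1, which stabilizes spindle microtubules, had means of 39.2 and 31.7 FPKM in Control and of 37.5 and 30.4 FPKM in P.T.ATBx.

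The absence of calls among the 42 depended on single libraries and on settings. Aurkb had an adjusted p of 0.0177 without Control 9 and 0.0254 without P.T.ATBx 2, over a range of 0.0177 to 0.365 in all alternatives (limma). Without Control 1, Top2a had an adjusted p of 0.0316 and Anln of 0.0429, over ranges of 0.0118 to 0.705 and 0.0171 to 0.611. The count of genes lower at an unadjusted p under 0.05 went from 8 to 18 without Control 1 and to 17 without P.T.ATBx 2. On the TPM scale it was 2, and the smallest adjusted p of the 42 was 0.362 (Aurka). Calls over all tested genes moved as well, from 59 higher and 49 lower in the main fit to 104 and 89 without Control 1. They were 66 and 63 without P.T.ATBx 2, and 20 and 29 on the TPM scale. The shares of all tested genes at an unadjusted p in these fits are not given here. Among the 42, the number of negative values stayed between 38 and 40 in every setting tried.

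Within each group the libraries differed in the mitosis genes as a set. P.T.ATBx 2 was the highest of all 20 libraries in 16 of the 42 genes, P.T.ATBx 9 the lowest in 9 and P.T.ATBx 7 the lowest in 5. Control 3 was the highest in 7 genes. Control 1 was split: it was the lowest of all 20 in 13 genes and the highest in 4. Together the 42 genes made up 0.265% ± 0.0284 of summed FPKM for Control against 0.250% ± 0.0244 for P.T.ATBx (SD, n = 10 each), from 0.197% in Control 1 to 0.300% in P.T.ATBx 2.

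**Figure D4:**
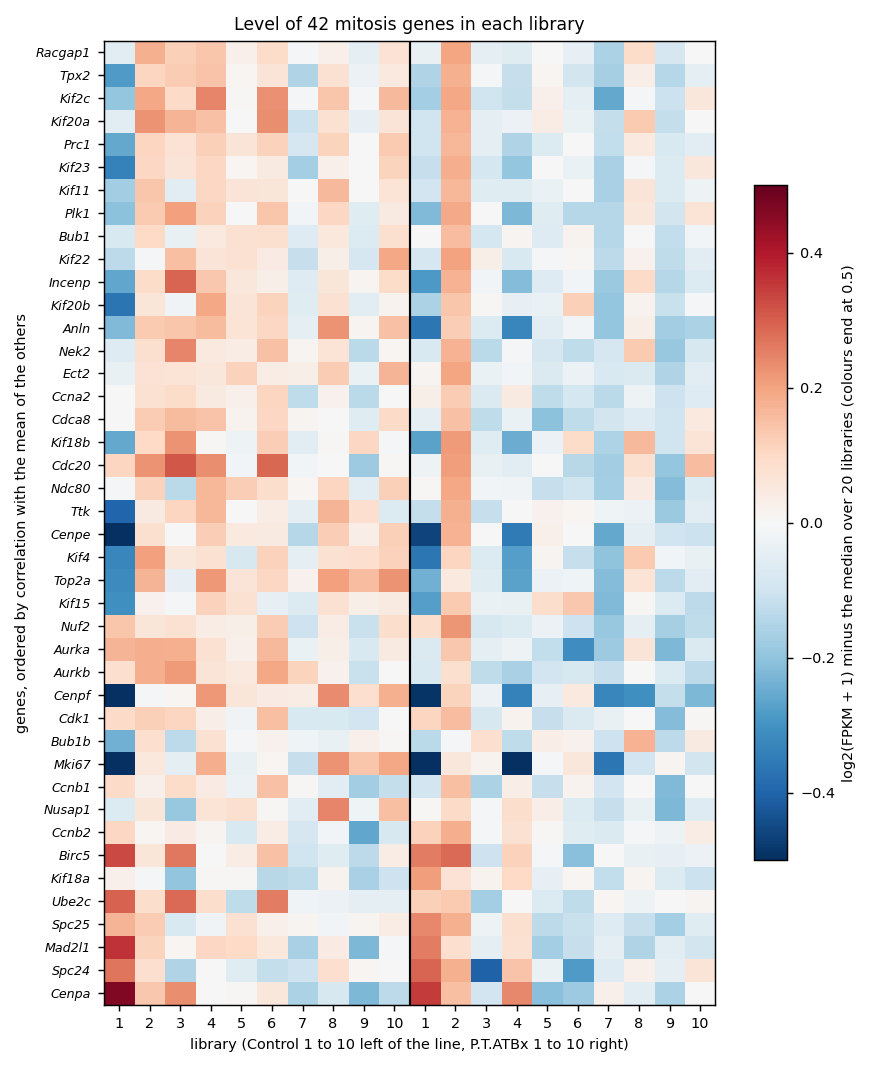
Level of each of the 42 mitosis genes (rows) in each library (columns, Control left of the line and P.T.ATBx right), as log2(FPKM + 1) minus the median of the gene over 20 libraries, with rows ordered by correlation with the mean of the other 41 genes. P.T.ATBx 2 is high in nearly all rows, and Control 1 is low in the upper rows and high in the lowest ones.

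The 42 genes covaried across libraries. Over their 861 pairs and the 10 libraries of a group, the median Pearson correlation was 0.368 for Control against 0.546 for P.T.ATBx (Spearman 0.333 and 0.406), against 0.01 and 0.02 for genes of the same range of levels. All such pairs share their libraries, and with them depth and tissue composition. With group means taken out, Racgap1 followed the mean of the other 41 genes most closely over 20 libraries (r = 0.940), then Tpx2 (0.918) and Kif2c (0.897). Mad2l1 (0.00665), Spc24 (−0.00543) and Cenpa (−0.03) did not follow it. Known partners varied in how they kept together: Cdk1 and Ccna2 had r = 0.810 in Control and 0.828 in P.T.ATBx, and Kif23 and Racgap1, the subunits of centralspindlin, 0.751 and 0.850. Ndc80 and Nuf2 had r = 0.222 in Control and 0.860 in P.T.ATBx. Other pairs had the lower value in P.T.ATBx: Bub1 and Bub1b had r = 0.626 in Control and 0.177 in P.T.ATBx, and Cdc20 and Ube2c 0.765 and 0.394.

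A pair of sets moved in opposite directions, both picked after the values were seen. High correlations within them and negative ones between them were therefore built into the pick and test nothing. Mki67, Top2a, Cenpe and Cenpf had a median r among themselves of 0.963 in Control and 0.884 in P.T.ATBx. Cenpa, Birc5, Spc24, Spc25, Mad2l1 and Ube2c had 0.601 and 0.837. Between the sets the median r was −0.61 for Control against −0.45 for P.T.ATBx. Mki67 and Cenpa show it: Control 1 held 27.7 FPKM of Mki67 and 58.1 of Cenpa, a ratio of 0.477, P.T.ATBx 1 held 31.6 and 53.7, a ratio of 0.589, and P.T.ATBx 4 held 34.2 and 49.7, a ratio of 0.688. In the other libraries the ratio lay between 0.907 and 1.55. Of the 20 libraries, Control 1 had the lowest Mki67 and the highest Cenpa, and correlations of the sets without it were not computed.

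The libraries at the low end of that ratio can be set beside their composition and transcript lengths. Control 1 and P.T.ATBx 1 had the largest Rpph1 and Rmrp shares, 20.5% and 17.2%, and P.T.ATBx 4 had 14.8%. Other libraries with shares close to that of P.T.ATBx 4 had higher ratios: Control 3 had 15% and a ratio of 0.983, P.T.ATBx 9 had 14.0% and 1.35, and Control 7 had 13.8% and 1.23. In Control 1 the deviation of a gene from the other Control libraries ran against the length of its longest annotated transcript, with Spearman rho −0.471 over the 42 genes and −0.634 over 6495 other genes of their range of levels. Cenpf (11130 bases), Mki67 (10061) and Cenpe (7910) deviated most, by −0.93, −0.90 and −0.72 on the log2(FPKM + 1) scale. Mad2l1, with an annotated transcript of 7557 bases, deviated by 0.36, and Kif18a (6509) by 0.10. Against the rest of their group, P.T.ATBx 1 and P.T.ATBx 4 had rho −0.373 and −0.34 over the 42, and −0.49 and −0.478 over the other genes. Control 3 and P.T.ATBx 7 had −0.431 and −0.413 over the 42, but −0.165 and −0.146 over the other genes. Outside Control 1, P.T.ATBx 1 and P.T.ATBx 4, rho over the other genes ran from −0.213 (Control 6) to 0.469 (P.T.ATBx 3). The part of composition and length in these differences was not tested.

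**Figure D5:**
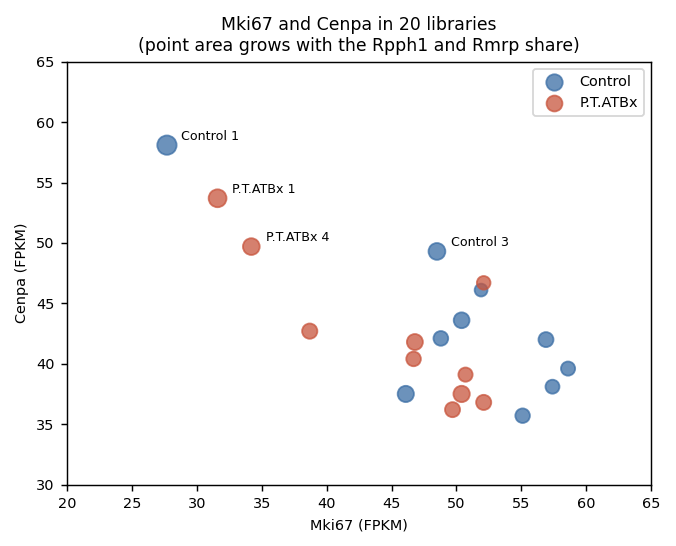
FPKM of Mki67 (horizontal) and Cenpa (vertical) in the 20 libraries, Control blue and P.T.ATBx red, with point area growing with the share of summed FPKM taken by Rpph1 and Rmrp. Control 1, P.T.ATBx 1 and P.T.ATBx 4 lie at low Mki67 and high Cenpa.

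Outside the 42, the genes whose levels followed their mean most closely, with group means taken out over 20 libraries, were Ddx1 (r = 0.916), Rrm1 (0.896), Ulbp1 (0.893), Spag5 (0.885) and Ckap2 (0.883), followed by Ncapg, Psmd1, Dlgap5, Smc2 and Abcf2. Rrm1 is the large subunit of ribonucleotide reductase, which supplies the building blocks of DNA, and Spag5, Ckap2 and Dlgap5 are spindle proteins. Ncapg and Smc2 are condensin subunits. The most opposite were Pla2g16 (−0.846), Zfp760 (−0.807), Rab4b (−0.794), Il1a (−0.792) and 4933412E12Rik (−0.788). Of the 100 genes most like the mean, 16 were in the lists of cell cycle genes described next, which hold 179 of the 12746 other tested genes.

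Those lists had no gene past the adjusted threshold. Of 61 other mitosis genes tested, 47 had negative values with a median of −0.05. The 3 smallest p belonged to Ccnf (−0.15), Fbxo5 (−0.13), the inhibitor of the anaphase-promoting complex Emi1, and Gsg2 (−0.11), the kinase haspin. Of 15 condensin and cohesin genes 11 were negative, with Cdca5 (sororin), which protects cohesion, at 18.2 ± 1.90 and 15.4 ± 1.37 FPKM (log2 fold change −0.23, limma adjusted p = 0.0621). Of 14 genes of the anaphase-promoting complex, its subunits together with Fzr1 and Ube2s, 7 were negative. The smallest p there belonged to Anapc4 (0.10, p = 0.0137, limma adjusted p = 0.224) and Anapc10 (0.20, p = 0.0288, limma adjusted p = 0.303), both higher. Of 12 genes of centriole duplication 11 were negative. Of 30 DNA replication genes 24 were negative, with a median of −0.07, as in the 42, and the helicase subunit Mcm3 was at −0.21. Of 20 G1 cyclin, Cdk and E2F genes 12 were negative, with Ccnd1 (cyclin D1) at 144 ± 14.7 and 125 ± 8.53 FPKM (−0.20, limma adjusted p = 0.0752).

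Among the regulators of late cell cycle transcription, 10 of 12 were negative. Foxm1, which activates many of the 42, was at 16.7 ± 1.62 FPKM in Control against 14.0 ± 1.39 FPKM in P.T.ATBx, with all 10 libraries of P.T.ATBx under the median of Control (log2 fold change −0.23 ± 0.06, SE, limma adjusted p = 0.0608). Mybl2 (B-Myb) was at 12.6 ± 1.57 and 11.6 ± 1.11 FPKM. With group means taken out over 20 libraries, the 12 regulators had a median r of −0.02 with the mean of the 42. That of all other tested genes was also −0.02, and that of the DNA replication genes 0.595. Of 15 Cdk inhibitors and p53 targets 6 were negative, with a median of 0.05. Trp53inp1 (0.24, limma adjusted p = 0.0621) and Sesn1 (0.22, limma adjusted p = 0.0869), both p53 targets, were on the higher side, while Cdkn1a (p21) was at 15.1 ± 4.01 and 12.6 ± 1.65 FPKM, on the lower side.

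Markers of other cells in the tumour were compared in the same fit. Dcn (decorin), a fibroblast marker, was the 1 marker called, and it was lower by 0.31 on the log2(FPKM + 1) scale (672 ± 40.1 and 543 ± 39.5 FPKM, limma adjusted p = 0.00125). Of the 8 fibroblast markers 6 were negative and 2 positive. The positive ones were Pdgfrb (0.19, p = 0.0402, limma adjusted p = 0.339) and Fap (0.16, limma adjusted p = 0.567). Summed over the 8 fibroblast markers, Control ran from 2636 to 3590 FPKM and P.T.ATBx from 2453 to 3764. The 12 immune markers ran from 1047 to 1892 FPKM in Control and from 1051 to 1647 in P.T.ATBx, with Control 1 and P.T.ATBx 1 the highest of their groups. Lyz2, a myeloid gene, made up most of that sum, at 1048 ± 232 and 1148 ± 147 FPKM, and Col3a1 most of the fibroblast sum, at 1995 ± 250.4 and 1995 ± 275 FPKM. Lyz2, Col3a1, Fap and the immune markers given below without a p were named after their values were seen. Within the immune list, the macrophage marker Cd68 was at 61.8 ± 4.71 and 69.5 ± 6.12 FPKM (0.17, p = 0.00398, limma adjusted p = 0.129). The T cell marker Cd3d was at 4.16 ± 1.41 and 2.93 ± 0.909 FPKM (−0.38, p = 0.0164, limma adjusted p = 0.245). Of the 11 immune markers tested, 4 were positive and 7 negative, and markers of the same cells did not all go the same way. Of the other myeloid markers, Lyz2 had a log2 fold change of 0.15, Csf1r of 0.03 and Itgam of −0.15. Of the other T cell markers, Cd4 had 0.15, while Cd3g, Cd8a and Cd3e had −0.38, −0.28 and −0.15. Adipocyte markers ran from 58.7 to 2786 FPKM in Control and from 87.4 to 694 in P.T.ATBx. Endothelial markers ran from 63.4 to 90.7 and from 64.4 to 84.1 FPKM, keratinocyte markers from 2.71 to 10.4 and from 2.59 to 11.3, muscle markers from 0.176 to 64.2 and from 0.179 to 39.9, and epithelial tumour markers from 4.17 to 180 and from 12.2 to 53.8. Of the 6 endothelial markers 5 were negative and 1 positive. Vwf was at −0.37 (p = 0.00492, limma adjusted p = 0.146) and Pecam1 at −0.13 (p = 0.0174, limma adjusted p = 0.251). All 6 epithelial tumour markers tested were negative, with Cdh1 at −0.24 (p = 0.0198, limma adjusted p = 0.264). All 5 adipocyte markers and 3 of 4 keratinocyte markers tested were negative, and all 5 muscle markers tested were positive. With Ptprc as a covariate, Aurkb and Aurka had adjusted p of 0.0207 and 0.0367 (limma), over a range of 0.0367 to 0.362 for Aurka in all alternatives. With the summed muscle, keratinocyte and adipocyte markers as covariates, 0 of the 42 were called, 17 were lower at an unadjusted p under 0.05, and the median was −0.10. In that fit 50 of all tested genes were called lower, against 49 in the main fit. No other marker list was used as a covariate. Of 16 relations between Mki67 and summed lists within groups of 10 libraries, none passed adjustment. The smallest p was for fibroblast markers in P.T.ATBx, with Pearson r = 0.734 (permutation p = 0.0144, adjusted 0.231), Spearman rho 0.382 (permutation p = 0.279, adjusted 0.638) and r = 0.715 without the 2 libraries farthest from the median. For fibroblast markers in Control, r was 0.752 (permutation p = 0.0296, adjusted 0.237) but 0.106 without the 2 farthest libraries. For immune markers in Control, r went from −0.726 to 0.255 when the 2 farthest were left out.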

How the data were processed

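Per the labels' protocols, tumour RNA was isolated on columns and sequenced after a stranded total RNA library preparation. The authors deposited FPKM values for 23402 genes in 20 libraries. The build was mm10, per the submitters' processing notes, while the sources used here do not name the aligner, the counting tool or the annotation. FPKM values carry no read totals. Relative depth was read from the spacing of low values, of which 96.6% of 3497 above the lowest of their gene were whole multiples within 0.05.

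Values were analysed as log2(FPKM + 1), with a pseudocount of 1, a scale on which changes of low genes appear smaller. The 12788 genes with a mean FPKM of at least 0.5 were fitted with group as the only term in limma 3.58.1 (R 4.3.3) and trended, robust moderation of the variances. Tests were two-sided, with Benjamini-Hochberg adjustment over all 12788 genes and a threshold of 0.05. The script was tested on simulated data. Single technical measures and relations across libraries were tested with 100000 permutations in scipy 1.17.1. Correlations between genes are descriptions.

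The 42 mitosis genes, their roles, the cell cycle lists and the marker lists were chosen with earlier results of these data known. Full values are given for the 6 genes with the smallest unadjusted p. From each list up to 3 genes with the smallest p may be named, with any gene past the threshold and a fixed set that includes Mki67, Top2a, Cdk1, Foxm1, Mybl2, Cdkn1a and Ptprc. The alternatives covered the pseudocount, the filter, quantile, median-of-ratios and TPM scaling, library weights, variance moderation, a replicate block, covariates, and leaving out libraries.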

Additional observations from a re-analysis of the deposited data

Results flagged for a closer look

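In each group of 10 libraries, the highest or lowest library of a mitosis gene was compared with its nearest neighbour by Dixon's ratio of gap to range against its 95% critical value. This marked 11 of 84 groups, where chance marks about 1 in 20, and the genes share their libraries. The share marked over all tested genes is not given here, so the 11 cannot be read as particular to mitosis genes. Control 1 stood apart in 8 of the 11, and it also correlated less with the other libraries over all tested genes (median r = 0.976). It was the lowest Control library for Mki67 (27.7 FPKM, next 46.1), Cenpf (5.77, next 11), Cenpe (9.61, next 14.3), Kif20b (12, next 15.1), Kif15 (7.70, next 9.28) and Ttk (8.06, next 10.4). It was the highest Control library for Mad2l1 (36.9 FPKM, next 30.9) and Spc24 (12.1, next 10.5). P.T.ATBx 2 was the highest P.T.ATBx library for Bub1 (20.9 FPKM, next 19), Kif22 (26.2, next 23.1) and Ect2 (23.2, next 20.3).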

How the results depend on the processing

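The median of the 42 stayed negative in every alternative, from −0.10 to −0.06. Genes of the 42 called lower were 0 in the main fit and 1 with quantile normalization, with the replicate block (Anln, adjusted p = 0.0453, limma, within 0.0171 to 0.611 over its alternatives) and without Control 1 and Control 3. They were 2 with Ptprc as a covariate, 3 with library weights, and 3 with the Rpph1 and Rmrp share as a covariate. Genes of the 42 lower at an unadjusted p under 0.05 were 8 in the main fit, 2 on the TPM scale, 4 on that scale without Rpph1 and Rmrp, 25 with library weights, 13 with the replicate block, 17 with muscle, keratinocyte and adipocyte covariates, 17 without Control 1 and Control 3, 15 without Control 1 and P.T.ATBx 1, and 13 with the Rpph1 and Rmrp share. The last 2 alternatives were chosen after seeing the data. The share of all tested genes at an unadjusted p is given for the main fit only, and calls over all genes moved with the settings too.

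Over all genes, calls were 20 higher and 29 lower on the TPM scale, 154 and 152 with library weights, 115 and 106 with Ptprc, and 132 and 110 with the Rpph1 and Rmrp share, and 76 were lower without Control 1 and Control 3. Leaving out 1 library in turn gave 38 (without P.T.ATBx 4) to 104 higher (without Control 1), 31 (without P.T.ATBx 4) to 89 lower (without Control 1; 78 without Control 2), 0 to 2 of the 42 lower, and 6 to 18 at an unadjusted p.

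Signs reversed in 4 genes near 0. Bub1b was at −0.0084 with library weights, −0.0129 with the muscle, keratinocyte and adipocyte covariates, −0.0329 without Control 1 and Control 3, and −0.0029 without Control 1 and P.T.ATBx 1, and ran from −0.0163 to 0.0214 on leaving out 1 library. Cenpa was at 0.0021 with those covariates and 0.0567 without Control 1 and Control 3, and ran from −0.0606 to 0.0256. Spc24 was at 0.0198 with the covariates and ran from −0.0492 to 0.0284. Birc5 was at 0.0233 without Control 1 and Control 3. The cause was not tested.

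The labels do not say whether replicate numbers pair the samples. With group means taken out, same-numbered libraries correlated from −0.315 to 0.393, with 5 of 10 pairs over 0.1. For 3 of 10 Control libraries the best match in P.T.ATBx had the same number, which does not settle whether they pair. Depth between libraries is known only in relative terms, which limits small differences in genes with few fragments, such as Spc24 (an estimated median of 362 per library).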
